A study of Mus musculus with 8 samples.

Results

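The response to PACAP38, a form of pituitary adenylate cyclase-activating polypeptide, was examined without ischemia, 6 h after injection, in the sham-operated mouse brain. The data are 2 of the 8 microarrays of the study, chosen by their titles: both compared control mice given PACAP38 with control mice given saline at 6 h, with the Cy3 and Cy5 dyes exchanged between them. All mice were male C57BL/6J animals of 8 to 12 weeks. In both groups the external carotid artery was exposed and the wound closed, and 1 µl of 0.9% NaCl, with or without 1 pmol PACAP38, was injected intracerebroventrically. The right hemisphere, opposite to the injected side and described in the study as taken without the olfactory bulb and cerebellum, was used for RNA. RNA of 3 mice was pooled in each group, and by the methods the same pair of pools was labeled for both arrays, which the labels number Pooled 1 and Pooled 2. The arrays are therefore 1 biological replicate measured 2 times, so that no test of PACAP38 against the variation between mice is possible and no p-value is given. The error stated here is the difference between the 2 arrays, which covers labeling, hybridization and scanning only. The other 6 arrays held the same comparison after permanent middle cerebral artery occlusion (PMCAO) at 6 h, and in sham and PMCAO mice at 24 h.

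PACAP is a neuropeptide of the secretin, glucagon and vasoactive intestinal peptide (VIP) family. It acts on the PAC1 receptor, encoded by *Adcyap1r1*, and on the VPAC receptors *Vipr1* and *Vipr2*, which it shares with VIP. These receptors raise cyclic AMP, which activates protein kinase A and the transcription factor CREB. PACAP is known in the brain as a transmitter of stress circuits and as a protective peptide in models of ischemia.

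Of 41174 probes, 36698 were measured on both arrays and 19602 were well above background in both groups on both arrays. Spots marked as outliers, which were left out, made up 1.89% of the array with PACAP38 in Cy5 and 10.7% of that with PACAP38 in Cy3. A probe is called higher here when the ratio of PACAP38 to saline was above 1.5-fold on each array, and lower when it was below 0.75-fold on each, with both groups well above background. By this rule 25 probes were higher with PACAP38, 0.128% of those well above background, and 88 were lower, 0.449%. Over all 36698 measured probes, dim ones included, 0.79% were past the threshold upward on both arrays and 1.04% downward. Another 72 probes well above background passed the threshold on both arrays but in opposite directions. Over these 19602 probes, which share the 2 pools and do not count as replicates, Pearson's r between the arrays was −0.0048. The SD of the mean log2 ratio (0.192) was close to that of the difference between arrays divided by 2 (0.193). The plot of both arrays therefore shows a round cloud around 0, from which a small number of genes stand apart.

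**Figure D1:**
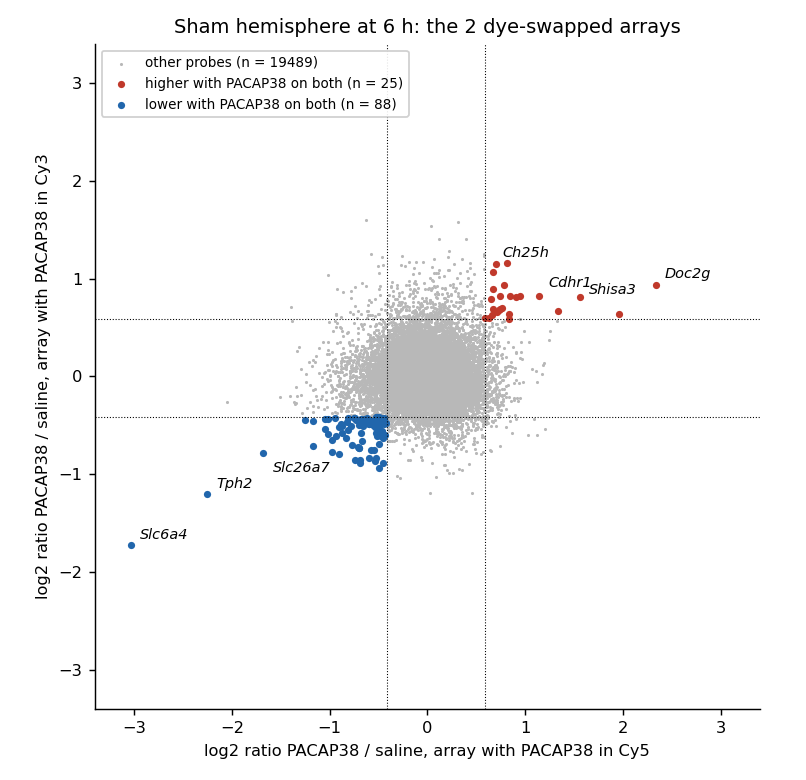
Log2 ratio of PACAP38 over saline in the sham hemisphere at 6 h on the array with PACAP38 in Cy5 (x axis) and on that with PACAP38 in Cy3 (y axis). Each point is 1 of 19602 probes well above background, dotted lines are the thresholds of 1.5-fold and 0.75-fold, and the 25 probes higher (red) and 88 lower (blue) on both arrays lie in the upper right and lower left corners, with *Doc2g* and *Slc6a4* farthest out.

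The called sets differed in how firmly they were measured. They also differed in threshold, since the cut of 0.75-fold admits smaller changes downward than 1.5-fold does upward. With 1.5-fold either way, 25 probes were higher and 19 lower. The processed signal, averaged over channels and arrays, had a median of 102 in the probes lower with PACAP38, 177 in those higher and 438 in all probes well above background. Dim probes depend most on the background correction. When the spots were corrected with normexp and an offset of 50 and normalized by loess, which draws the ratios of dim probes toward 0, all 113 called probes kept their direction in the mean of the arrays but only 10 stayed past the threshold on both. The 5 higher were *Cdhr1*, *Nmb*, *Ch25h*, *Plin4* and *Timp1*. The 5 lower were *Slc6a4*, *Tph2*, *Gucy1a1*, *Plcb1* and *Arfgef1*. Other probes for the same genes separated the sets too. For 7 genes in the higher set 8 other probes were well above background, and 7 of these were higher on both arrays, beside 22.9% of all probes. The 8 include the 2 called *Doc2g* probes, each counted for the other, whose agreement was fixed by the call rule. For 44 genes in the lower set 62 other probes were well above background. Of these 20 were lower on both arrays, beside 24.3% of all probes, and 0 reached the threshold. Among the latter, *Plcb1*, the phospholipase C that acts downstream of Gq-coupled receptors, was at −0.90 and −0.52 on the log2 scale with the called probe, but 2 other probes stood at 0.03 and 0.02, and at −0.15 and 0.14. A further *Plcb1* probe, measured on the array with PACAP38 in Cy5 alone, stood at −1.20. For *Gucy1a1*, a subunit of the soluble guanylate cyclase that responds to nitric oxide, the called probe stood at −0.82 and −0.55, a further probe at −1.23 and −0.33, and another at 0.25 and 0.13, while a probe measured on the first array alone stood at −0.61. The probe of *Arfgef1*, an exchange factor for ARF proteins, stood at −1.25 and −0.44 and another at 0.41 and 0.00, with −0.22 for a probe measured on the first array alone. In the sequence of the probes, the median GC content was 45.0% in the higher set, 40.0% in the lower set and 41.7% over all probes well above background.

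**Figure D2:**
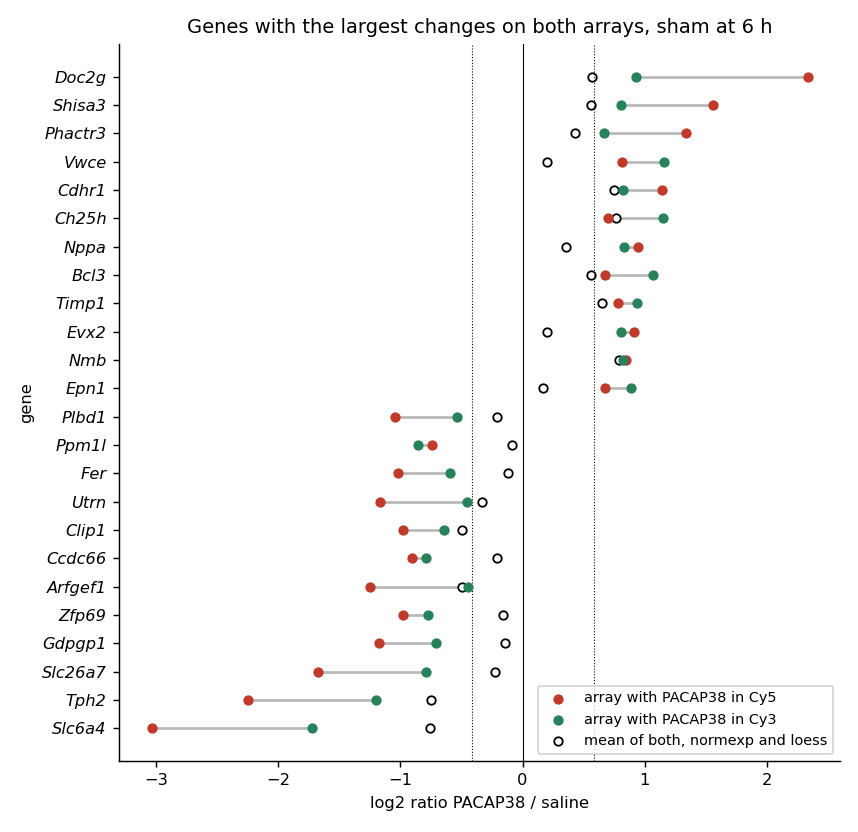
Log2 ratio of PACAP38 over saline (x axis) for the 12 gene symbols with the highest and the 12 with the lowest mean ratio among called probes (y axis). Filled points are the 2 arrays, open points the mean of both after normexp and loess, and dotted lines the thresholds; *Nmb*, *Cdhr1*, *Ch25h* and *Timp1* keep most of their value under the second processing, while *Vwce*, *Evx2*, *Epn1* and *Ppm1l* move toward 0.

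The genes with the largest decrease were those of serotonin neurons. *Slc6a4* encodes the serotonin transporter, which takes serotonin back into the nerve terminal, and *Tph2* the tryptophan hydroxylase that limits serotonin synthesis in the brain. Both are transcribed in the raphe nuclei of the brainstem, from which serotonin axons reach the forebrain. The probes that measured them began as follows, in the 5′ to 3′ direction, given as the first 30 bases of each 60-mer so that the measured transcript can be identified. They lie, by the coordinates of the array design in mouse build mm7, at chr11:77113633-77113692 on the plus strand and at chr10:114585279-114585338 on the minus strand.
Slc6a4: acataaaccacctaagagaaaacagggatg
Tph2: gaaaagttttgataaacaggatatataggt

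On the array with PACAP38 in Cy5, the processed signal of *Slc6a4* was 28.3 with PACAP38 and 232 with saline. On the swapped array it was 54.2 with PACAP38 and 179 with saline. The log2 ratios were −3.04 and −1.72, for a mean of −2.38 ± 0.66 (the difference between arrays divided by 2), or 0.192-fold. For *Tph2* the signal was 45.6 against 217 on the first array and 145 against 334 on the second. The log2 ratios of −2.25 and −1.20 gave a mean of −1.73 ± 0.52, or 0.302-fold. In both genes the PACAP38 pool was far below the saline pool with either dye, and normexp and loess, which reduced the means to −0.76 and −0.75, left both past the threshold. The other genes of the list of serotonin neurons differed less. Of 15 probes for 11 genes well above background, 2 were called lower and 0 higher, 6 were lower on both arrays and 0 were higher on both, and over all probes 0.449% were called lower, 24.3% were lower on both and 22.9% higher on both. The median of the list was −0.13 beside 0.00 for all probes. *Slc18a2*, the vesicular monoamine transporter shared with other aminergic neurons, had log2 ratios of −0.41 and −0.04 with 1 probe and −0.43 and −0.09 with the other. *Gata3*, a transcription factor of raphe neurons, was at −0.22 and −0.36. *Fev*, the factor that defines serotonin neurons, differed in sign between the arrays, with 0.19 and −0.91, and so did *Ddc*, the decarboxylase that completes serotonin synthesis, with 0.16 and −0.30 at its brighter probe. The list of dopamine and noradrenaline neurons shares *Ddc* and *Slc18a2* with this list, and *Th* and *Calb2* with the olfactory bulb list described below. Its median is therefore not separate from theirs. It was 0.16 over 11 probes with 0 called, beside 0.128% of all probes called higher and 0.449% lower. Of the 11, 5 were higher on both arrays and 2 lower. In bulk tissue, fewer serotonin neurons in a pool and less RNA in each of them cannot be told apart, and the amount of brainstem in the pools was not tested.

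The same genes were low in PMCAO at 6 h and, by less, in PMCAO at 24 h, but not in sham at 24 h. *Slc6a4* stood at −1.78 and −1.86 in PMCAO at 6 h, at 0.13 and −0.15 in sham at 24 h, and at −0.75 and −0.98 in PMCAO at 24 h. *Tph2* stood at −1.05 and −1.76, at 0.21 and −0.40, and at −0.34 and −0.84. These comparisons came from other mice. By the identifiers of the array files, the sham and PMCAO arrays of 6 h shared a slide and both pairs at 24 h lay on another, and the headers give a different version of the scanner software at each time. Time, slide and software version cannot be told apart.

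The 250 bases before the start sites of both genes, from RefSeq on GRCm38.p6, are given with each occurrence of TGACG, on either strand, in capitals. TGACG is the first part of the cyclic AMP response element (CRE) TGACGTCA, the motif bound by CREB. *Slc6a4* is at chr11:76998347-76998596 on the plus strand and *Tph2* at chr10:115185023-115185272 on the minus strand.
Slc6a4: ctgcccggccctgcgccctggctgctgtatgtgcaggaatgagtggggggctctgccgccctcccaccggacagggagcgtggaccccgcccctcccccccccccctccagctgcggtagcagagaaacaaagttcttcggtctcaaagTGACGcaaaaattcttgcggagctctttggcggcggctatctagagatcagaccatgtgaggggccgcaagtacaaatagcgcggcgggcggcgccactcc
Tph2: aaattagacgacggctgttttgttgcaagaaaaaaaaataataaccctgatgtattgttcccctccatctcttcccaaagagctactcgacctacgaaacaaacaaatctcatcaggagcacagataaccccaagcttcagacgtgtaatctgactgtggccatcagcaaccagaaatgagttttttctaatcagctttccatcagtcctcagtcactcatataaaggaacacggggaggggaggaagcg

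The window of *Slc6a4* holds 1 TGACG, starting 101 bases before the start site, and that of *Tph2* holds 0. The motif occurs in 17.8% of all 32851 promoter windows of this length, and the whole CRE in 1.55%. The presence of TGACG in 1 of 2 windows is a description of these sequences, and whether it is a site of action was not tested.

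The genes that were higher were led by genes of the olfactory bulb, although the study describes the hemispheres as taken without it. Of 16 genes in that list, 10 were well above background, with 13 probes. Of these 5 probes, for 4 genes, were called higher and 0 lower, beside the 0.128% and 0.449% of all probes. Of the 13 probes, 9 were higher on both arrays and 1 lower on both, beside 22.9% and 24.3% of all probes. The list had the highest median of the 52 lists examined, 0.29 on the log2 scale, and 0.23 after normexp and loess. The lists were written with earlier results of these data known, so that this rank is a description and not independent evidence. The lines below give the first 30 bases of the probes of the 2 genes of the list that passed under both ways of processing. They lie in mm7 at chr14:34505752-34505811 and chr7:76773745-76773804, both on the minus strand.
Cdhr1: tgtaataatcttgaggagggatatcctgca
Nmb: aaatgtgttaatctgttactgtgatttctg

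*Cdhr1*, a cadherin-related protein of mitral and tufted cells, had signals of 786 with PACAP38 and 356 with saline on the array with PACAP38 in Cy5, and of 1175 and 663 on the other. Its log2 ratios were 1.14 and 0.82, or 1.98-fold in the mean. *Nmb*, the peptide neuromedin B, which is abundant in the bulb, had log2 ratios of 0.84 and 0.82, or 1.78-fold, the closest pair of values among the largest increases. *Doc2g*, a double C2-domain protein, was higher with both of its probes, at 2.34 and 0.93 with the first and 1.96 and 0.64 with the second, so that the arrays shared the direction but differed in size. *Sp8*, a transcription factor of bulbar interneurons, stood at 0.66 and 0.63. Beyond the called probes, *Th*, the tyrosine hydroxylase of bulbar dopamine neurons and of midbrain, stood at 0.65 and 0.24, and *Trh*, thyrotropin-releasing hormone, at 0.35 and 0.23. The 3 probes of *Calb2*, calretinin of periglomerular cells, had means between 0.16 and 0.26.

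In further genes of the list, a group was not well above background on both arrays, which leaves them out of the calls. *Tbx21*, a T-box factor of mitral and tufted cells, had log2 ratios of 2.73 and 1.99, with PACAP38 well above background on both arrays and saline on 1. *S100a5*, a calcium-binding protein of olfactory sensory axons, was at 4.26 and 0.82 with the same limits. *Eomes*, a T-box factor of the same cells as *Tbx21*, was at 2.36 and 0.65, with PACAP38 well above background on 1 array and saline on 0. *Omp*, which defines olfactory sensory neurons, was well above background on 1 array in each group and differed in sign, with 0.84 and −0.86. Summed over the list without the pan-neuronal *Uchl1*, the processed signal of 18 probes was 9276 with PACAP38 and 5877 with saline on the array with PACAP38 in Cy5, and 9690 and 6568 on the other. With *Uchl1* included, the sum was 46836 with PACAP38 and 42895 with saline on the first array. On the second it was 144013 and 159236, the opposite direction. The part of residual bulb tissue in these values was not tested. For the cerebellum, the other region described as removed, 15 probes of granule cell genes had a median of −0.10 with 0 called. Of these, 3 were higher on both arrays and 6 lower, beside 22.9% and 24.3% of all probes. The 12 probes of Purkinje cell genes had a median of −0.04, with 0 called higher and 1 lower, beside 0.128% and 0.449% of all probes. Of the 12, 1 was higher on both arrays and 3 were lower.

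**Figure D3:**
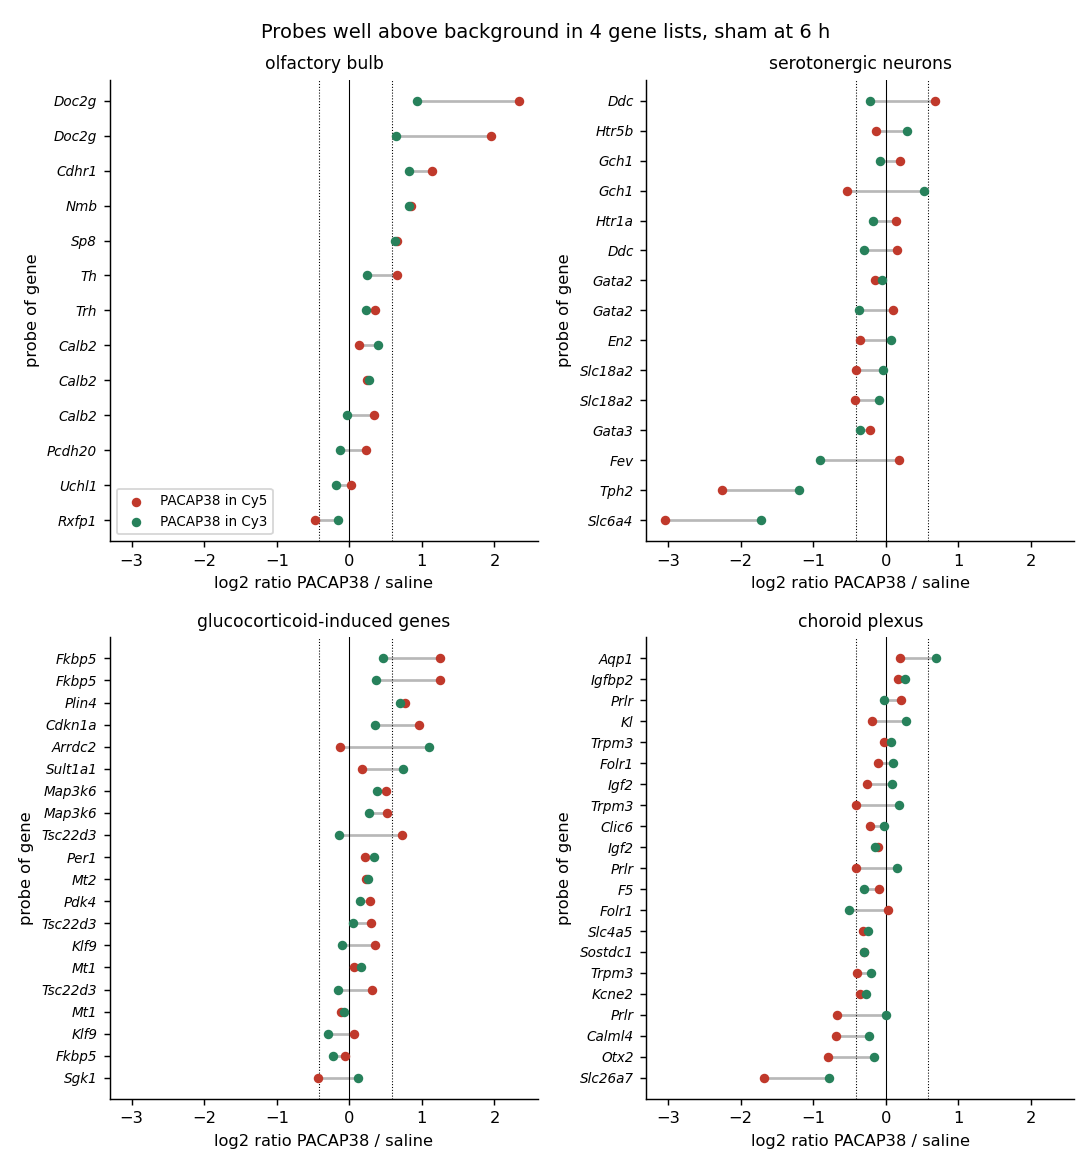
Log2 ratio of PACAP38 over saline (x axis) of each probe well above background (y axis, by gene) in 4 lists, with the array with PACAP38 in Cy5 in red, that with PACAP38 in Cy3 in green, and the thresholds dotted. Olfactory bulb and glucocorticoid-induced genes lie mainly to the right of 0, serotonin genes to the left with *Slc6a4* and *Tph2* far out, and choroid plexus genes slightly to the left.

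Among the other called increases were *Timp1*, *Bcl3* and *Ch25h*. *Timp1* inhibits matrix metalloproteinases and is induced in reactive astrocytes. *Bcl3* is an IκB-family protein that acts with NF-κB in the nucleus. *Ch25h* makes 25-hydroxycholesterol, an immune oxysterol. *Timp1* had signals of 1531 and 888 for PACAP38 and saline on the first array and 401 and 209 on the second, log2 ratios of 0.79 and 0.94, and a mean of 1.82-fold. Its other probe well above background in both groups agreed in direction, with 0.55 and 0.39. *Ch25h* had log2 ratios of 0.70 and 1.15, or 1.90-fold, and *Bcl3* of 0.67 and 1.07, or 1.83-fold. In each of these genes the PACAP38 pool exceeded the saline pool with either dye, and the difference between the arrays was smaller than the change. The probes began with the following bases, at chrX:19307699-19307758 on the plus strand for *Timp1*, chr19:34175232-34175291 on the minus strand for *Ch25h* and chr7:17490887-17490946 on the minus strand for *Bcl3* in mm7.
Timp1: tctgaggactaccagagccgtcactttgct
Ch25h: ctatgtatgaaatcgcactggaactgggct
Bcl3: tccaccctgagggacccagagaaacagagg

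*Ch25h* was the one gene among the 12 largest increases whose promoter window, available for 11 of the 12, held a whole CRE. Of the 12 largest decreases, 9 had a window and 0 held it. The share over all promoter windows is 1.55%. The motif in 1 window among genes chosen by their values is a description of this sequence, and whether it is a site of action was not tested. The 250 bases before the start of *Ch25h*, at chr19:34475149-34475398 on the minus strand of GRCm38.p6, are shown with the CRE in capitals, which starts 61 bases before the start site.
Ch25h: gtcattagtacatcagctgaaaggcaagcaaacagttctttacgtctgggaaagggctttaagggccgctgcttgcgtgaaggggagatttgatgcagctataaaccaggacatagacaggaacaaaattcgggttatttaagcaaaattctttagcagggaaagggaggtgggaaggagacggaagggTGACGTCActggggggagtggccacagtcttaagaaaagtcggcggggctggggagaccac

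The lists that hold these genes had few calls, as did all probes well above background (0.128% higher and 0.449% lower). In the list of acute-phase genes and NF-κB feedback, 1 of 17 probes was called higher (*Bcl3*) and 0 lower, 7 were higher on both arrays and 1 lower on both, beside 22.9% and 24.3% of all probes, and the median was 0.11. *Icam1*, the endothelial adhesion molecule, was measured by a probe with 10 spots per array and stood at 0.50 and 0.47, with an SD over spots of 0.0912 and 0.102. *Socs3*, the feedback inhibitor of cytokine signaling, was at 0.32 and 0.46, and *Lcn2*, the acute-phase lipocalin, at 0.68 and 0.45. *Osmr*, the oncostatin M receptor, was at 0.42 and 0.82. Against these, *Nfkb1* was at 0.03 and −0.08 with its brightest probe, and *Tnfaip3* at −0.23 and 0.21. Astrocyte genes had a median of 0.06 over 24 probes with 1 called, *Timp1*, and *Gfap* stood at 0.23 and 0.26 with its brightest probe. Markers of microglia had a median of −0.03 and those of endothelial cells of −0.05, with 0 called in both. Of 19 chemokine probes well above background 0 were called, 7 were higher on both arrays and 1 lower, beside the same shares. *Ccl2* was at 1.14 and 0.46, with saline well above background on 1 array. *Ccl7*, which like *Ccl2* draws monocytes, was at 1.67 and 0.90 with saline not well above background on either array, which allows only the statement that it was at least 1.05-fold higher. Among 13 interleukin probes 0 were called. *Il6* was well above background on 0 arrays with PACAP38 and 1 with saline, *Il1b* stood at −0.35 and 0.10 and *Il11* at 0.10 and −0.12.

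Of 20 probes for 13 genes induced by glucocorticoids, 12 were higher on both arrays and 2 lower on both, beside 22.9% and 24.3% of all probes. The median was 0.26, or 0.21 after normexp and loess, and 1 was called higher, beside 0.128% of all probes. This was *Plin4*, a lipid-droplet protein also known as S3-12, with signals of 7984 and 4695 on the first array and 5668 and 3479 on the second, log2 ratios of 0.77 and 0.70, and 1.66-fold in the mean. It is the brightest of the called increases and its mean was 0.75 after normexp and loess, against 0.74 before. *Fkbp5*, the co-chaperone that limits the glucocorticoid receptor, was at 1.25 and 0.47 and at 1.25 and 0.37 with 2 probes, past the threshold on 1 array only, and another probe stood at −0.06 and −0.23. *Cdkn1a*, the cell-cycle inhibitor p21, was at 0.96 and 0.35 with a probe of 10 spots per array and an SD over spots of 0.0966 and 0.100. The 2 probes of *Map3k6* were at 0.52 and 0.27, and at 0.50 and 0.38. *Sult1a1* stood at 0.17 and 0.73 and *Mt2*, a metallothionein, at 0.24 and 0.26. *Sgk1*, a kinase induced by the same receptor, differed in sign, with −0.43 and 0.12. *Plin4* was lower with PACAP38 in PMCAO at 6 h, at −0.98 and −0.40, and the brightest *Fkbp5* probe had a mean of −0.73 there. Of 40 probes for heat shock genes, 23 were measured on both arrays and 19 were well above background. Of these 19, 11 were higher on both arrays and 2 lower, beside 22.9% and 24.3% of all probes, with a median of 0.11 and 0 called. *Dnajb4*, an Hsp40 chaperone, reached 0.78 and 0.56 with 1 of its probes but −0.44 and −0.09 with another and 0.00 and 0.04 with its brightest.

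Genes of the choroid plexus and meninges had medians below 0. In the choroid plexus list 10 of 21 probes were lower on both arrays and 2 higher, with a median of −0.13, beside 24.3% of all probes lower on both and 22.9% higher. In the list for meninges 11 of 18 were lower on both and 2 higher, beside the same shares, with a median of −0.12. The 1 probe called in each was that of *Slc26a7*, an anion exchanger, with log2 ratios of −1.68 and −0.79. Its signal with PACAP38 was 22.4 and 40.7 on the 2 arrays, and normexp and loess reduced the mean to −0.23. Brighter genes gave smaller values. *Slc47a1*, an organic cation exporter of the meninges, had a brighter probe at −1.03 and −0.31 and another at −0.82 and −0.32. *Otx2*, the homeobox factor of choroid epithelium, was at −0.79 and −0.16 and *Calml4* at −0.68 and −0.23. *Kcne2*, the potassium channel subunit of the same cells, was at −0.36 and −0.28. *Aqp1*, the water channel of the choroid plexus, was at 0.20 and 0.70 against the direction of the list. The summed signal of 27 choroid plexus probes was lower with PACAP38 on the first array, 14575 against 16442, but not on the second, 35760 against 34104.

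In the list of PACAP and VIP ligands and receptors 5 of 12 measured probes were well above background and 0 were called. Of the 5, 2 were higher on both arrays and 1 lower, beside 22.9% and 24.3% of all probes. The median was 0.14, or 0.01 after normexp and loess. *Adcyap1*, which encodes PACAP, was at 0.10 and −0.19, and *Adcyap1r1* at −0.02 and −0.04. *Vipr1* was at 0.03 and 0.33. *Vipr2* was not well above background in either pool. Over all probes well above background 0.128% were called higher and 0.449% lower. At these shares, 0 calls in a list of this size, or of those below, does not set it apart from all probes. Of 57 probes for cyclic AMP signaling 0 were called, with a median of −0.01. Of 26 for activity-regulated genes and CREB targets 0 were called, with a median of 0.01: *Fos* stood at −0.12 and −0.07, *Egr2* at 0.30 and 0.28, *Jun* at 0.16 and 0.16, and *Bdnf* at −0.36 and −0.17 with its brighter probe. The circadian genes had a median of 0.07 over 29 probes, also with 0 called.

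**Figure D4:**
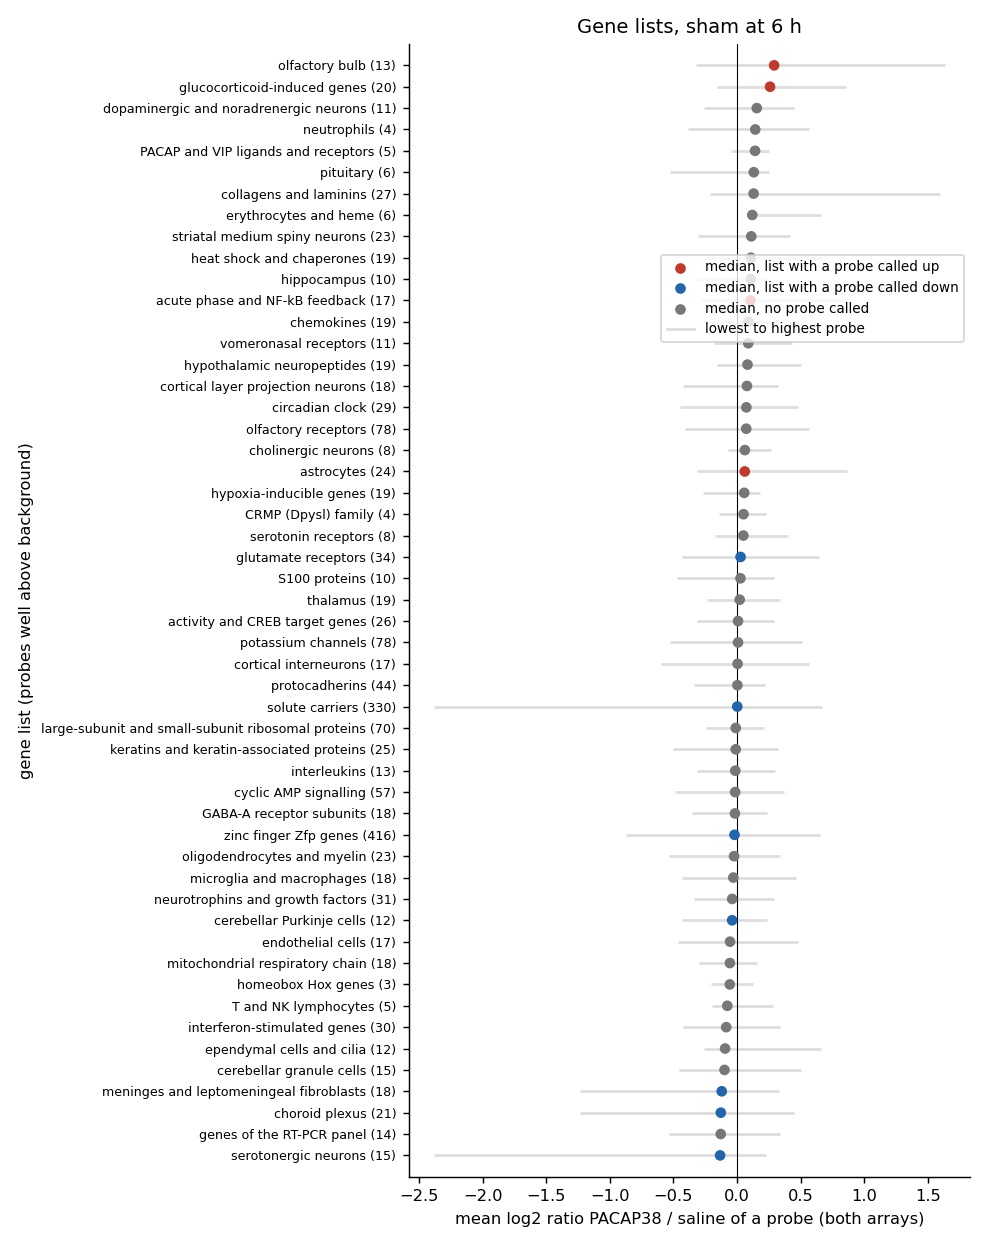
Median of the mean log2 ratio of PACAP38 over saline (x axis) in each of 52 gene lists (y axis, number of probes well above background in parentheses), with the lowest to the highest probe as a line. Olfactory bulb (0.29) and glucocorticoid-induced genes (0.26) are at the top and serotonin neurons (−0.13) at the bottom, and most other lists lie within 0.1 of 0.

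Other increases belonged to no list. *Nppa*, the natriuretic peptide ANP, was at 0.94 and 0.83, and *Shisa3*, which retains Wnt and FGF receptors in the cell, at 1.56 and 0.81. *Phactr3*, a regulator of protein phosphatase 1, was at 1.34 and 0.67, although another and far brighter *Phactr3* probe stood at 0.23 and 0.33. *Vwce*, *Evx2* and *Epn1* were dim, with saline signals of 31.1 to 41.1, 25.7 to 45.7 and 28.6 to 56.4, and had means between 0.17 and 0.20 after normexp and loess. A far brighter *Epn1* probe stood at 0.09 and 0.03, with signals of 7984 for PACAP38 and 7520 for saline on the array with PACAP38 in Cy5. *Cd109*, a coreceptor of TGF-β, was at 0.73 and 0.68 and *Tubb6*, a β-tubulin, at 0.75 and 0.69, although another *Tubb6* probe stood at −0.07 and 0.21. A further 11 probes with a symbol were higher by the threshold on both arrays with the saline pool not well above background on either, and 0 were lower in the same sense. The highest of these was *Wdtc1*, at least 1.13-fold higher, followed by *Cyct*, the testis form of cytochrome c, at least 1.12-fold, and *Krt2*, a keratin, at least 1.1-fold.

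The remaining decreases were dispersed over functions. Solute carriers gave 6 of the 88 lower probes and 0 of the higher, of 330 well above background, beside 0.449% of all probes called lower, and the median of the family was 0.00. Beside *Slc6a4* and *Slc26a7* these were *Slc6a6*, the taurine transporter, with log2 ratios of −0.64 and −0.43, *Slc19a3*, a thiamine transporter, with −0.55 and −0.75, *Slc30a5*, a zinc transporter, with −0.89 and −0.49, and *Slc7a14* with −0.48 and −0.47. The taurine transporter was bright, with PACAP38 signals of 3428 and 6999, but its other probe stood at 0.17 and −0.15. Brighter probes of *Slc30a5* stood at 0.18 and −0.20, and at −0.11 and −0.07. The other probe of *Slc7a14* was at −0.37 and 0.04, and that of *Slc19a3* at −0.38 and −0.15. Zinc finger *Zfp* genes had 1 of 416 probes called lower, *Zfp69*, at −0.98 and −0.77. *Utrn*, the dystrophin homolog utrophin, was at −1.17 and −0.45, *Clip1*, a microtubule plus-end protein, at −0.98 and −0.65, and *Fer*, a tyrosine kinase, at −1.02 and −0.59, though the brightest probes of *Clip1* and *Utrn* stood at 0.08 and −0.17 and at −0.34 and −0.10, and another *Fer* probe at 0.08 and −0.52. *Gdpgp1*, *Ccdc66*, *Ppm1l* and *Plbd1* had means between −0.94 and −0.79 with PACAP38 signals under 50. Of 128 ribosomal protein probes, a bright family, 78 were measured on both arrays. The 70 of these well above background ranged from −0.24 to 0.21. Of 78 olfactory receptor probes well above background 0 were called, and 27 were higher on both arrays and 3 lower, beside 22.9% and 24.3% of all probes.

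A list of 17 genes chosen for RT-PCR had 14 of 32 measured probes well above background. Of these 0 were called, beside 0.128% of all probes called higher and 0.449% lower. The study describes its RT-PCR genes as drawn at random from those changed on its arrays, so the list is not independent evidence. Apart from *S100a5* and *Ccl2*, described above, *Fgf21*, a metabolic hormone, was at 1.69 and 0.58 with saline well above background on 1 array. *Gabra6*, the GABA-A receptor subunit of cerebellar granule cells, was at 0.95 and 1.61 with PACAP38 well above background on 1 array and saline on 0, and *Crtam* at 0.49 and 0.88 with saline on 0. *Il1rap* was lower on both arrays with 2 of its probes, at −0.65 and −0.26 and at −0.74 and −0.33, but at −0.22 and 0.03 with its brightest. *Actb*, a reference gene, was at 0.22 and −0.15.

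The 25 higher probes were followed in the other comparisons, which used other mice. In PMCAO at 6 h, where all 25 were well above background in both groups, 1 was again called higher (*Cdhr1*, at 0.69 and 0.75) and 1 lower, beside 0.537% and 0.946% of all probes well above background in both comparisons. In sham at 24 h 1 of 24 was called higher (*Evx2*) and 1 lower (*Timp1*), beside 0.0366% and 0.251%. In PMCAO at 24 h the direction was opposite: 14 of 25 were called lower and 1 higher, beside 3.92% and 0.588%, and their median was −0.67. The 14 included genes of the olfactory bulb list, *Timp1*, *Bcl3* and *Ch25h*. *Timp1* stood at −1.70 and −1.69, *Doc2g* at −1.94 and −1.18 with its first probe, *Cdhr1* at −1.24 and −1.35, *Sp8* at −1.08 and −0.94, *Nppa* at −0.97 and −1.03, *Bcl3* at −1.06 and −0.71 and *Ch25h* at −0.89 and −0.78. The olfactory bulb list had a median of −0.48 in that comparison, 0.22 in PMCAO at 6 h and 0.04 in sham at 24 h. Of the 88 lower probes, 3 of 65 were called lower in PMCAO at 6 h (*Slc6a4*, *Tph2* and *Ahrr*, the repressor of the aryl hydrocarbon receptor) and 3 higher. In sham at 24 h 0 of 82 were called in either direction, though 36 were lower on both arrays and 3 higher, beside 13.1% and 13.2% of all probes. In PMCAO at 24 h 7 of 82 were called lower and 1 higher. The lower set is dimmer than the rest, and the part of signal level in these counts was not tested.

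**Figure D5:**
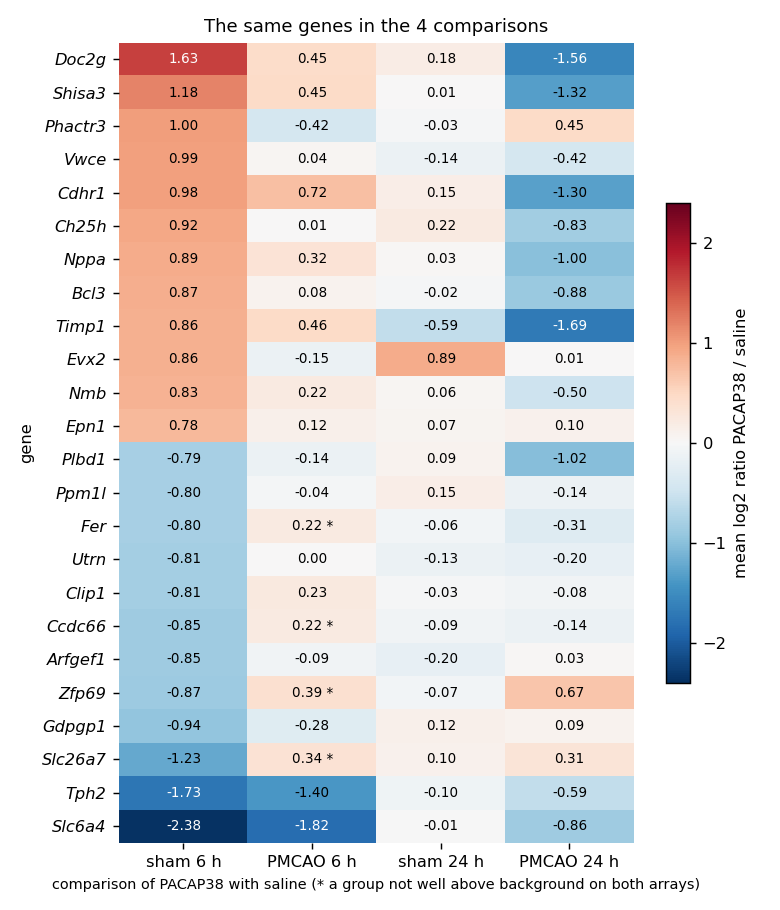
Mean log2 ratio of PACAP38 over saline of the same 24 genes (rows) in the 4 comparisons (columns), as numbers and as color from blue (lower with PACAP38) to red (higher); an asterisk marks values with a group not well above background on both arrays. *Slc6a4* and *Tph2* are low in both 6 h columns and, by less, in PMCAO at 24 h. *Doc2g*, *Cdhr1*, *Timp1* and *Nppa* change from positive in sham at 6 h to negative in PMCAO at 24 h.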

How the data were processed

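Agilent 4x44K mouse 60-mer arrays were read by the authors with Feature Extraction (9.5.3.1 per the labels, 9.5.1.1 per the file headers of the 6 h arrays), which gave the deposited log10 ratio of Cy5 over Cy3 and its p-value per spot. The deposited spot intensities (processed, mean and background) and flags came from the same software, which per the file headers subtracted background, detrended and dye-normalized the processed signal. The deposited table holds the ratio of processed signals, with a minus sign as a score where PACAP38 was in Cy3, and served as an alternative. Log ratios were converted to log2, turned to PACAP38 over saline, and averaged per probe and then over the 2 arrays. Control spots and outlier flags were left out. Normexp, loess and Aquantile used limma 3.58.1 in R 4.3.3, and the rest Python 3.11.15. The number of arrays limits the precision. Symbols came from accessions (23075 probes) or names (9659) in RefSeq on GRCm38.p6, or the file (1777), and 6663 probes had none. Bounds compare the brighter pool with the lowest signal well above background. Named were the 12 highest and 12 lowest called symbols, the 3 largest bounds each way, called genes and the first 3 genes of each list, and the RT-PCR genes. Others were chosen after their values were seen. The members and lists were chosen with earlier results of these data known. The call rule was tested on simulated data. A called gene of one list is not reported here.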

Additional observations from a re-analysis of the deposited data

Results flagged for a closer look

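*Timp1* was called in opposite directions in sham mice at the 2 times. Its mean log2 ratio of PACAP38 over saline was 0.86 at 6 h and −0.59 at 24 h, where the arrays gave −0.52 and −0.67, a difference of 1.46 between times. The difference was not tested, since each time is 1 pair of pools and the times lie on separate slides.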

How the results depend on the processing

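The calls, 25 higher and 88 lower, depended on the processing more than on scaling. They were 24 and 87 in the deposited table of ratios, 25 and 88 after centring on the median, 26 and 117 with outlier spots kept, and 24 and 80 as gene symbols. Normexp and loess gave 5 and 5. Without a filter on dim probes there were 290 and 381, 0.79% and 1.04% of 36698, and with at least 1 group well above background 66 and 115. A threshold of 1.5-fold either way gave 19 lower probes, 0.5 on the log2 scale 61 higher and 37 lower, and 2-fold 0 and 2 (*Slc6a4* and *Tph2*). The mean of the arrays gave 100 and 400. Each array alone gave 324 and 460 higher probes, and 1492 and 614 lower. Calls of the scanner software at p under 0.01 on both arrays gave 28 and 11. None of the called genes named changed sign under the alternatives run. Of 158 named values, 52 moved by more than the SD of the 2 arrays under normexp and loess and 29 when all probes of a gene were averaged. No paired analysis was possible because the 2 arrays are 1 pair of pools labeled in both ways and no test was made. The median processed signal was 102 in the lower set and 438 over all probes well above background, and the part of signal level in the lower calls was not tested.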
